A study of Mus musculus with 18 samples.

Results

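The genes of cholesterol synthesis and its regulator SREBP2 were examined in bulk RNA sequencing of mouse liver. The members were chosen by name: 20 enzymes of the pathway, 4 genes of SREBP2 and its control, and 6 genes of sterol uptake, trafficking and esterification. All 30 were found among the 15052 genes of the deposited table, and none was at 0 in any mouse. Their values ranged from 47 to 30864 scaled reads, and the lowest of them belonged to *Fdps*.

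Cells make cholesterol from acetyl-CoA through the mevalonate steps, which end in isoprenoids, and through squalene and a series of sterols. The transcription factor SREBP2, encoded by *Srebf2*, turns these genes on when sterols in the endoplasmic reticulum are low. The protein Scap carries SREBP2 to the Golgi for cleavage, and the Insig proteins hold Scap back when sterols are plentiful. The liver is a main site of this synthesis, and it also stores cholesterol as esters and exports it in lipoproteins and bile.

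The 18 mice came from the chronic-plus-binge ethanol model and fell into 4 groups by diet and genotype. *Apoe* KO mice (labelled ApoE) lack functional apolipoprotein E, a lipoprotein component, in every cell from conception, and WT mice carry the normal gene; per the study, the WT mice are C57BL/6J and the KO line came from The Jackson Laboratory, with its strain background not given in the sources used here. The pair-fed diet was given to 4 WT and 5 *Apoe* KO mice. Ethanol was given to 5 WT and 4 *Apoe* KO mice, and the latter carry the numbers 1, 2, 4 and 5. Mice were 10 to 12 weeks old, all labelled female, and took a liquid Lieber-DeCarli diet for 5 days of acclimation. EtOH-fed mice then had 5% (v/v) ethanol in that diet for 10 days and 5 g/kg ethanol by gavage on day 11. Pair-fed mice had an isocaloric control diet and 9 g/kg dextrin-maltose by gavage. Livers of EtOH-fed mice were taken 9 h after the gavage.

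Promoter windows are shown for members whose changes with diet or genotype the results turn on, because SREBP2 acts at promoters together with the factor NF-Y. Of the 30 members, 24 matched a RefSeq window on GRCm38.p6, and the 250 bases before each gene start were searched on both strands. CCAAT, the letters bound by NF-Y (ATTGG on the other strand), was in a window of 22 of the 24 genes (91.7%), against 4251 of the 10524 genes of the table with a window (40.4%); *Acat2* and *Scap* had none. TCACNCCAC, a form of the sterol regulatory element, was in 1 of the 24, *Hmgcs1*, against 139 of the 10524 (1.32%). A match is a run of letters and not a measured binding site, and a gene without one was only found to lack these letters in this window. The first 3 sequences belong to enzymes that fell with ethanol in WT liver, and the last 2 to the Insig pair, which moved in opposite directions. Capitals mark CCAAT or ATTGG and, in *Hmgcs1*, TCACCCCAC at 137 bases before the start; no capital run overlaps another.
Hmgcs1, chr13:119690101-119690350, plus strand: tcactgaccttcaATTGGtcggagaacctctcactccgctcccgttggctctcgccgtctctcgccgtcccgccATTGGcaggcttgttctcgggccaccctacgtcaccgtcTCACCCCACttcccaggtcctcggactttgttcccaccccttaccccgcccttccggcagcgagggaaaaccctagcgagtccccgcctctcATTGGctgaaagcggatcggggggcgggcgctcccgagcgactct
Nsdhl, chrX:72918271-72918520, plus strand: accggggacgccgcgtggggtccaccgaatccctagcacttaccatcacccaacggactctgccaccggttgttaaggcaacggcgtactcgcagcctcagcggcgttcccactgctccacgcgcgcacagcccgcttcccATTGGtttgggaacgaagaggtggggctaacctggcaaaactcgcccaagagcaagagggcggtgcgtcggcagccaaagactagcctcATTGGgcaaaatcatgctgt
Mvd, chr8:122443423-122443672, minus strand: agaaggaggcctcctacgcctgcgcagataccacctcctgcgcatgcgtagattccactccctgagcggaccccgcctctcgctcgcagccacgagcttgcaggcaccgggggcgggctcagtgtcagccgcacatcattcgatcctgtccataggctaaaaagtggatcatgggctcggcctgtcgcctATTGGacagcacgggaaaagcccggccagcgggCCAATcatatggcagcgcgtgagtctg
Insig1, chr5:28071162-28071362, plus strand: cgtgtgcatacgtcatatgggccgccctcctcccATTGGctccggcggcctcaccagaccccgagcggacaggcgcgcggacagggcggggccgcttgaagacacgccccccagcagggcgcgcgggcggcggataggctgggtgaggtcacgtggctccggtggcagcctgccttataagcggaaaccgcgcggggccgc
Insig2, chr1:121332590-121332839, minus strand: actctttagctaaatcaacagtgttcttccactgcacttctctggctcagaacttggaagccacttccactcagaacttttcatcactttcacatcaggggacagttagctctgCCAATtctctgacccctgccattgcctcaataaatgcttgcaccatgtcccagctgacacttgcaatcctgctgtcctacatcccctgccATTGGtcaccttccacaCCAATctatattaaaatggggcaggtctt
*Insig1* is cut to the 201 bases before its GENCODE gene. *Insig2* has 3 windows in RefSeq and the most upstream is shown. Its other windows hold neither CCAAT nor TCACNCCAC, and the gene-level value does not tell its transcripts apart.

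The labels were checked before the comparisons. *Apoe* was at 658805 to 798431 in pair-fed WT and 611230 to 791833 in EtOH-fed WT mice, and at 8586 to 108651 and 12041 to 61572 in the pair-fed and EtOH-fed KO mice. EtOH-fed *Apoe* KO mouse 1 went against its female label, with *Xist* at 826, against 15227 to 30379 in the other 17 mice, and the Y-linked *Ddx3y* at 1077, against 2 to 118. It was kept, and each comparison it enters is also given without it. All 7 hepatocyte markers were present, with summed values of 2131703 to 3621298 over the 18 mice. The 14 Kupffer cell and macrophage markers summed to 17320 to 28662 in pair-fed WT mice and to 9994 to 15778 in EtOH-fed WT mice, and in KO mice to 15638 to 26401 on the pair-fed diet and 21852 to 37224 on ethanol. The 7 stellate cell markers summed to 10831 to 22708 in EtOH-fed KO mice, against 4700 to 8503 in the other 3 groups. The 5 endothelial markers summed to 5464 to 9125 in EtOH-fed mice and 3253 to 4791 in pair-fed mice. None of the markers found in the table had a group median of 0, the part of these cell types in the results below was not tested, and in bulk tissue fewer cells of a type and less RNA per cell cannot be told apart. The scaled totals were nearly equal, at 32267493 to 32292618, so they do not give the depth. In 6 mice the steps between low values gave 5.61 to 13.5 M reads on genes. These were pair-fed WT mice 1 and 2 (5.61 and 10.6 M), pair-fed KO mouse 1 (8.52 M) and EtOH-fed KO mice 2, 4 and 5 (13.5, 7.88 and 8.39 M). No EtOH-fed WT mouse was among them. The mice with an estimate were thus unevenly spread over the groups, and the part of depth in the results was not tested.

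Which of these genes changed with ethanol in WT liver was asked by setting the 5 EtOH-fed WT mice against the 4 pair-fed WT mice. Most of the pathway was lower: 17 of the 30 members fell and 3 rose, against 6.52% and 6.19% of all genes tested. Of the 20 synthesis enzymes, 15 fell and all 20 estimates were below 0, with 5 of 8 falling in the mevalonate steps and 10 of 12 in the squalene and sterol steps. The members that rose were *Insig2*, *Mylip* and *Soat2*. The median log2 fold change was −0.76 over the members and −0.01 over all genes. In 17 members every EtOH-fed WT mouse was below every pair-fed WT mouse, and in 3 every one was above, where 6.96% and 7.43% of all genes separated in the same way. Calls are from limma's moderated test on log2(value + 1) at an adjusted p under 0.05, with Benjamini-Hochberg adjustment over the 15052 genes.

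**Figure D1:**
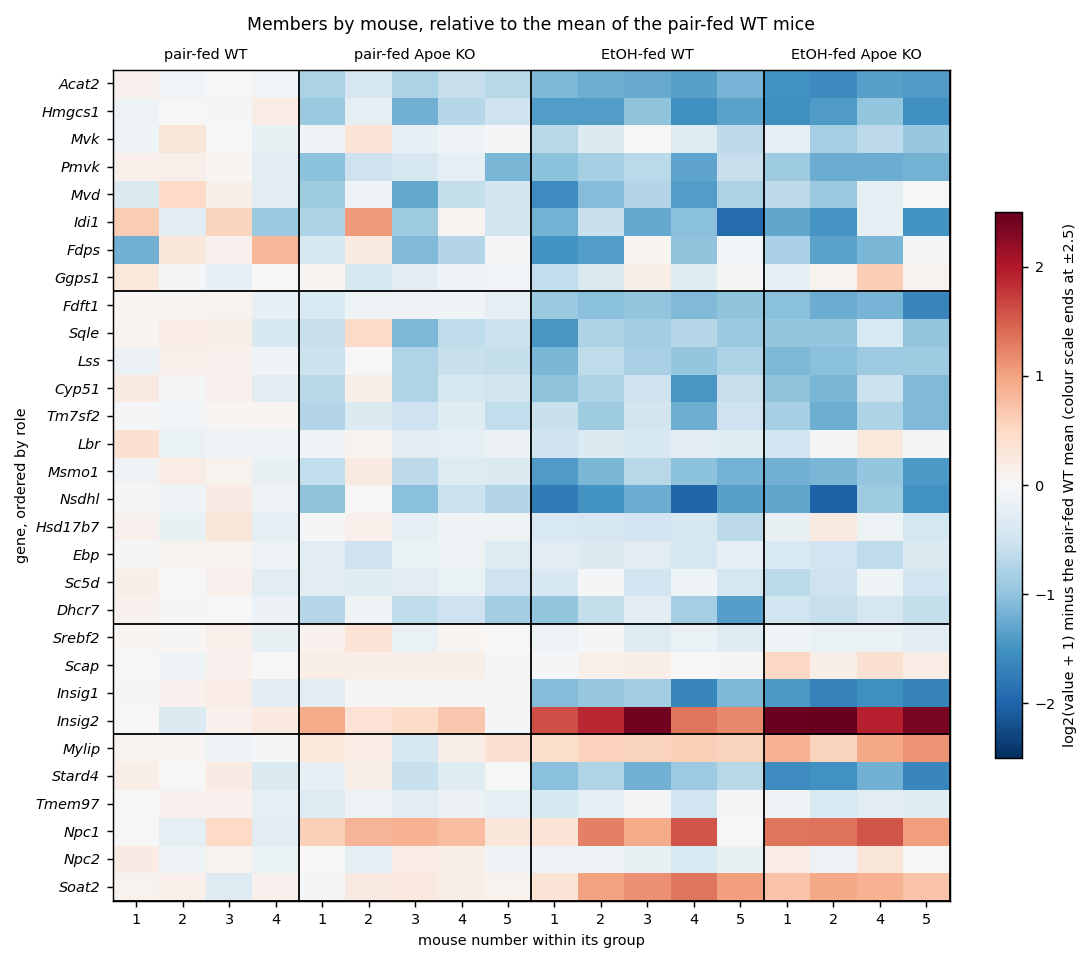
Log2(value + 1) of the 30 members in each of the 18 mice, relative to the mean of the 4 pair-fed WT mice; rows are genes ordered by role, columns are mice by group, and colours end at 2.5 in either direction. In the EtOH-fed columns most enzyme rows are below the pair-fed WT level while *Insig2* and *Soat2* are above it, and pair-fed *Apoe* KO mouse 2 is close to the pair-fed WT columns.

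The same question was asked in the *Apoe* KO genotype, with 4 EtOH-fed and 5 pair-fed mice, none of them in the WT comparison. Here 11 of the 30 members fell and 4 rose, against 6.92% and 16.3% of all genes tested. The enzymes that fell were *Acat2*, *Hmgcs1* and *Mvk* of the mevalonate steps and *Fdft1*, *Lss*, *Cyp51*, *Tm7sf2*, *Msmo1* and *Nsdhl* of the sterol steps, and *Insig1* and *Stard4* fell with them. *Insig2*, *Mylip*, *Soat2* and *Npc1* rose. Every EtOH-fed mouse was below every pair-fed mouse in 8 members and above in 4, as in 6.01% and 14.0% of all genes. The counts of members that rose or lay above were thus near the shares over all genes. The median log2 fold change was −0.30 over the members and 0.13 over all genes, so the members lay further below the table as a whole than below 0. Without EtOH-fed KO mouse 1, 9 members fell and 4 rose; *Cyp51* and *Lss* no longer passed, with log2 fold changes of −0.49 and −0.46. Without EtOH-fed KO mouse 5, 7 members fell, and *Hmgcs1*, *Mvk*, *Nsdhl* and *Cyp51* were those lost. No count over all genes is set beside the fits without these mice, so their counts are only a description. When the values were rescaled by median-of-ratios size factors, all genes split into 1656 higher and 1607 lower calls in place of 2446 and 1042, their median moved from 0.13 to 0.00, and 14 members fell and 4 rose, with *Idi1*, *Pmvk* and *Srebf2* (−0.37) added.

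Between the 2 genotypes, 13 members passed in both diet comparisons, 10 lower and 3 higher. These were 13 of the 20 called in WT mice and 13 of the 15 called in *Apoe* KO mice. The share of all genes passing in both comparisons was not counted, so these counts are only a description. A further 7, *Dhcr7*, *Ebp*, *Hsd17b7*, *Idi1*, *Mvd*, *Pmvk* and *Sqle*, passed in WT mice but not in KO mice, and *Mvk* and *Npc1* passed in KO mice but not in WT mice. Passing in 1 genotype does not show that the genotypes differ, and that difference is tested further on.

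**Figure D2:**
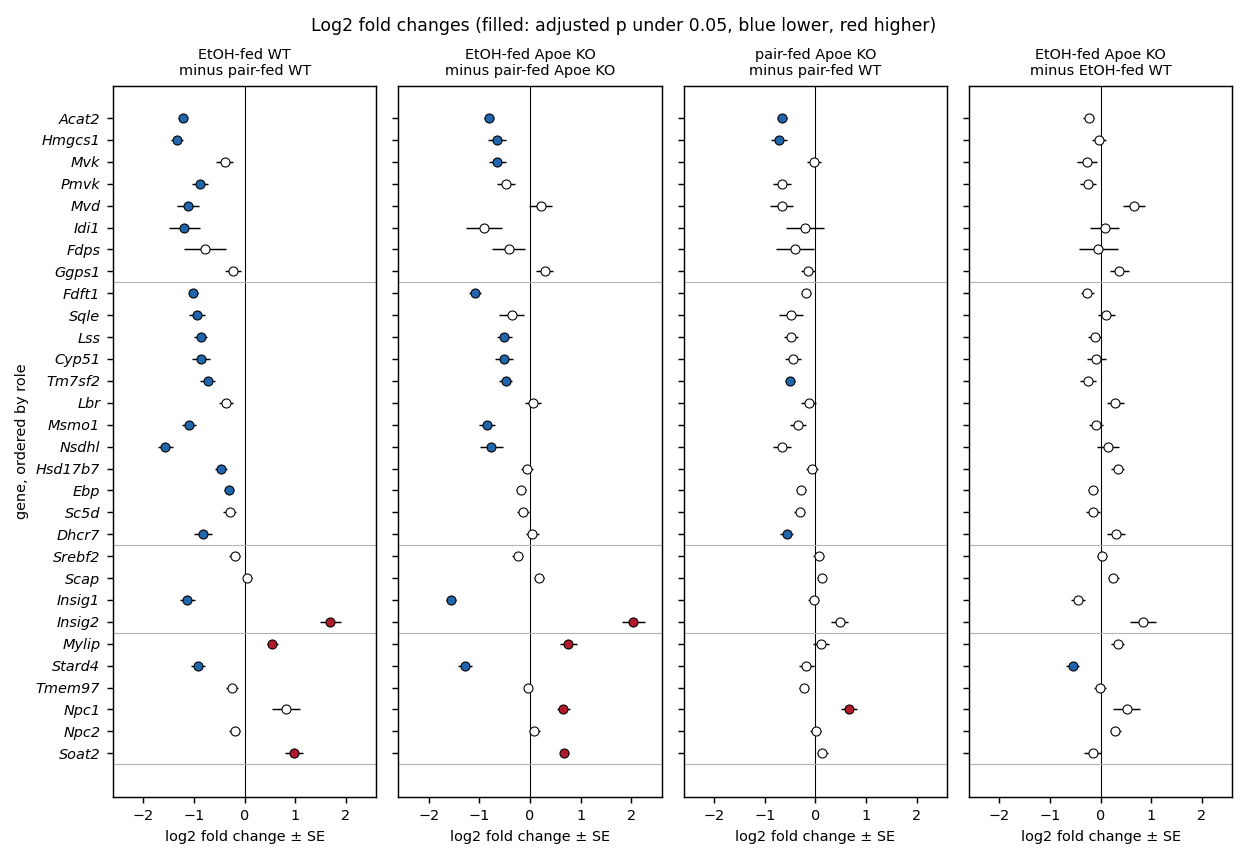
Log2 fold change with its SE for each of the 30 members in the 2 diet and the 2 genotype comparisons, with filled points for members at an adjusted p under 0.05. Filled points are mostly left of 0 in the diet panels, with 17 lower in WT and 11 lower in *Apoe* KO mice, and few are filled in the genotype panels (5 in pair-fed and 1 in EtOH-fed mice).

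In the mevalonate steps, *Acat2*, which makes acetoacetyl-CoA from acetyl-CoA in the cytosol (chr17:12942890-12960747 on GRCm38), was at 3158, 2803, 2934 and 2804 in pair-fed WT mice and at 1335, 1245, 1223, 1140 and 1311 in EtOH-fed WT mice. It was at 1680, 2193, 1683, 1957 and 1818 in pair-fed KO mice and at 1021, 976, 1146 and 1096 in EtOH-fed KO mice. The groups did not overlap between diets in either genotype, and the pair-fed KO mice lay between the pair-fed WT and the EtOH-fed mice. The log2 fold change with ethanol was −1.23 ± 0.09 (SE) in WT mice (adjusted p = 1.04e-05) and −0.81 ± 0.10 in KO mice (adjusted p = 0.000173). Of its stretches of 50 transcript bases, 39.1% also occur in *Acat3* or *Tcp1* transcripts, so its level is uncertain to that extent.

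*Hmgcs1*, the cytosolic HMG-CoA synthase (chr13:119690379-119708260), had a level of 2074 scaled reads per kb of exon in pair-fed WT mice. Its values were 8666, 9498, 9129 and 10819 in pair-fed WT mice and 3584, 3585, 4737, 3290 and 3732 in EtOH-fed WT mice. In KO mice they were 5005, 8104, 4128, 5755 and 6631 on the pair-fed diet and 3258, 3559, 4802 and 3280 on ethanol. The WT groups were fully apart, while the highest EtOH-fed KO mouse was above the lowest pair-fed KO mouse. With ethanol its log2 fold change was −1.34 ± 0.12 in WT mice (adjusted p = 2.40e-05), a 2.53-fold lower level, and −0.65 ± 0.17 in KO mice (adjusted p = 0.0161), a 1.57-fold lower level.

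*Pmvk*, the kinase that phosphorylates mevalonate phosphate (chr3:89454541-89469013), was at 1642, 1640, 1555 and 1232 in pair-fed WT mice and 741, 852, 948, 600 and 1014 in EtOH-fed WT mice. It was at 736, 1048, 1146, 1288 and 678 in pair-fed KO mice and at 819, 640, 639 and 661 in EtOH-fed KO mice. The pair-fed KO mice reached from the level of the EtOH-fed groups to above the lowest pair-fed WT mouse (1288 against 1232). Its log2 fold change was −0.88 ± 0.15 in WT mice (adjusted p = 0.00301) and −0.47 ± 0.18 in KO mice (adjusted p = 0.0771).

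**Figure D3:**
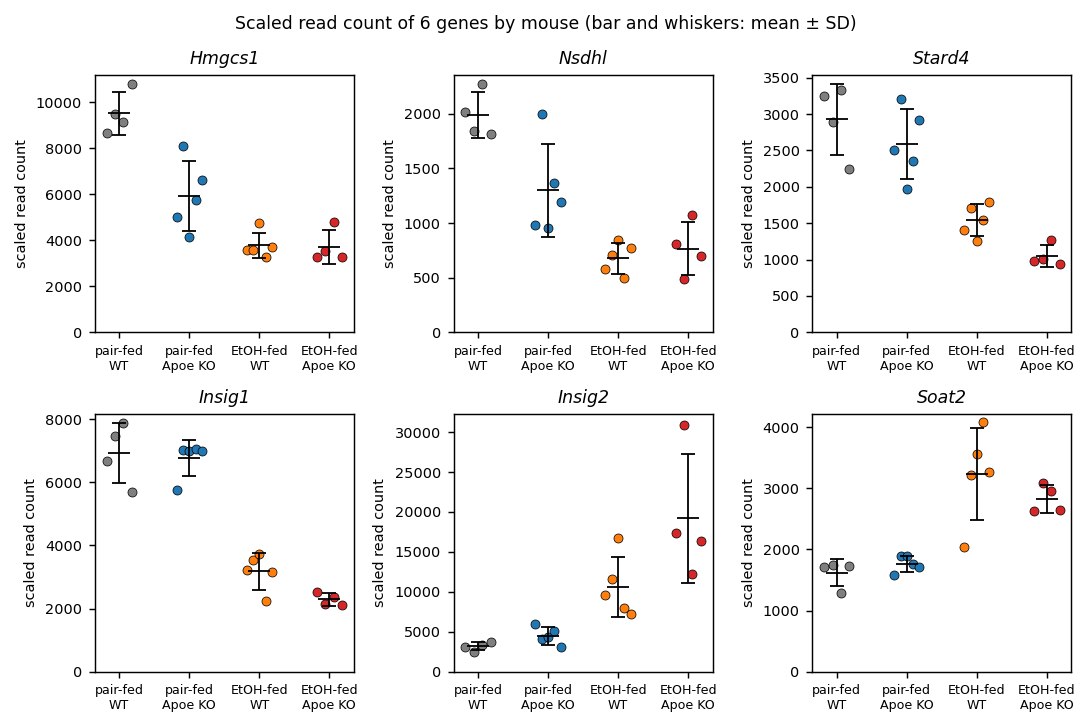
Scaled read counts of *Hmgcs1*, *Nsdhl*, *Stard4*, *Insig1*, *Insig2* and *Soat2* in every mouse of the 4 groups, with the mean and SD of each group; the vertical axes start at 0. *Insig1* falls from 5702 to 7870 in pair-fed WT mice to 2119 to 2537 in EtOH-fed *Apoe* KO mice, while *Insig2* goes from 2495 to 3722 up to 12175 to 30864.

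Among the enzymes from squalene on, *Fdft1*, the squalene synthase (chr14:63145150-63179578), had values of 4109, 4181, 4259 and 3456 in pair-fed WT mice and of 2109, 1935, 2009, 1856 and 1975 in EtOH-fed WT mice. In KO mice it had 3045, 3680, 3737, 3762 and 3396 on the pair-fed diet and 1921, 1697, 1785 and 1269 on ethanol. Both pair-fed groups were above every EtOH-fed mouse. For *Fdft1* this was a log2 fold change of −1.01 ± 0.10 in WT mice (adjusted p = 3.85e-05) and −1.09 ± 0.12 in KO mice (adjusted p = 6.62e-05). Its transcripts share 26.5% of their stretches of 50 bases with *Ctsb* and *Gm6781*.

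*Sqle*, the squalene epoxidase (chr15:59315077-59331192), was at 1838, 1990, 1934 and 1335 in pair-fed WT mice and at 643, 1023, 965, 1076 and 919 in EtOH-fed WT mice. It was at 1183, 2457, 805, 1130 and 1213 in pair-fed KO mice and at 894, 895, 1339 and 881 in EtOH-fed KO mice. The WT groups were apart, and the KO groups overlapped, with pair-fed KO mouse 2 the highest of all 18 mice. With ethanol *Sqle* had a log2 fold change of −0.94 ± 0.16 in WT mice (adjusted p = 0.00262) and −0.36 ± 0.25 in KO mice (adjusted p = 0.323).

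*Lss*, the synthase that closes the sterol rings (chr10:76531588-76557138), was at 1193, 1439, 1423 and 1219 in pair-fed WT mice and at 591, 843, 752, 671 and 761 in EtOH-fed WT mice. It was at 902, 1327, 782, 895 and 869 in pair-fed KO mice and at 602, 637, 700 and 707 in EtOH-fed KO mice. The groups were apart between diets in both genotypes. Its log2 fold change was −0.87 ± 0.12 in WT mice (adjusted p = 0.000783) and −0.51 ± 0.14 in KO mice (adjusted p = 0.0207).

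*Msmo1*, the oxidase that begins the removal of sterol methyl groups (chr8:64718139-64733792), was at 3210, 3904, 3645 and 3021 in pair-fed WT mice and at 1276, 1562, 2120, 1675 and 1504 in EtOH-fed WT mice. It was at 2237, 4015, 2181, 2747 and 2702 in pair-fed KO mice and at 1499, 1556, 1744 and 1273 in EtOH-fed KO mice. Again no EtOH-fed mouse reached a pair-fed mouse of its genotype. This was a log2 fold change of −1.09 ± 0.14 in WT mice (adjusted p = 0.000326) and −0.84 ± 0.16 in KO mice (adjusted p = 0.0023).

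*Nsdhl*, the sterol dehydrogenase of the next step (chrX:72918557-72958514), had the lowest log2 fold change among the members in WT mice. Its values were 2017, 1841, 2269 and 1814 in pair-fed WT mice and 583, 705, 842, 493 and 771 in EtOH-fed WT mice. In KO mice they were 978, 1999, 956, 1366 and 1191 on the pair-fed diet and 804, 489, 1069 and 696 on ethanol. The WT groups were far apart, and the KO groups overlapped. With ethanol its log2 fold change was −1.57 ± 0.15 in WT mice (adjusted p = 4.37e-05), a 2.96-fold lower level, and −0.76 ± 0.23 in KO mice (adjusted p = 0.0298), a 1.70-fold lower level. The call in KO mice was lost without pair-fed mouse 2 or 4 or EtOH-fed mouse 2 or 5, with estimates from −0.74 to −0.57.

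The other 12 enzymes are given by their fold changes. *Mvd*, *Idi1*, *Cyp51*, *Dhcr7*, *Tm7sf2*, *Hsd17b7* and *Ebp* fell in WT mice, with log2 fold changes from −1.19 (*Idi1*) to −0.31 (*Ebp*). *Cyp51*, the lanosterol demethylase, fell in both genotypes, by 0.87 on the log2 scale in WT mice and by 0.51 in KO mice. In KO mice its call was near the threshold (adjusted p = 0.0456) and the groups overlapped. That call was lost without pair-fed KO mouse 2, 4 or 5 or EtOH-fed KO mouse 1, 2 or 5, and with all 18 mice in 1 fit. *Tm7sf2*, a sterol reductase, also fell in both, by 0.73 and 0.48. *Ebp* and *Hsd17b7* had adjusted p-values of 0.0441 and 0.026 in WT mice, and *Idi1*, the isopentenyl diphosphate isomerase, 0.0237; its own sequence is shared with other genes over 25.3% of its stretches. *Ebp* lost its call without any 1 of 7 of the 9 mice, all but pair-fed WT mouse 4 and EtOH-fed WT mouse 5, and *Hsd17b7* and *Idi1* lost theirs without pair-fed WT mouse 1 or 3. With size factors *Ebp* and *Hsd17b7* no longer passed (−0.29 and −0.45). *Fdps*, *Ggps1*, *Lbr* and *Sc5d* passed in neither genotype, and neither did *Mvk* in WT mice, where it had −0.40. *Fdps* is the least certain of them, with values of 47 to 240 over the 18 mice and 26.2% of its stretches shared with 8 other genes.

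**Figure D4:**
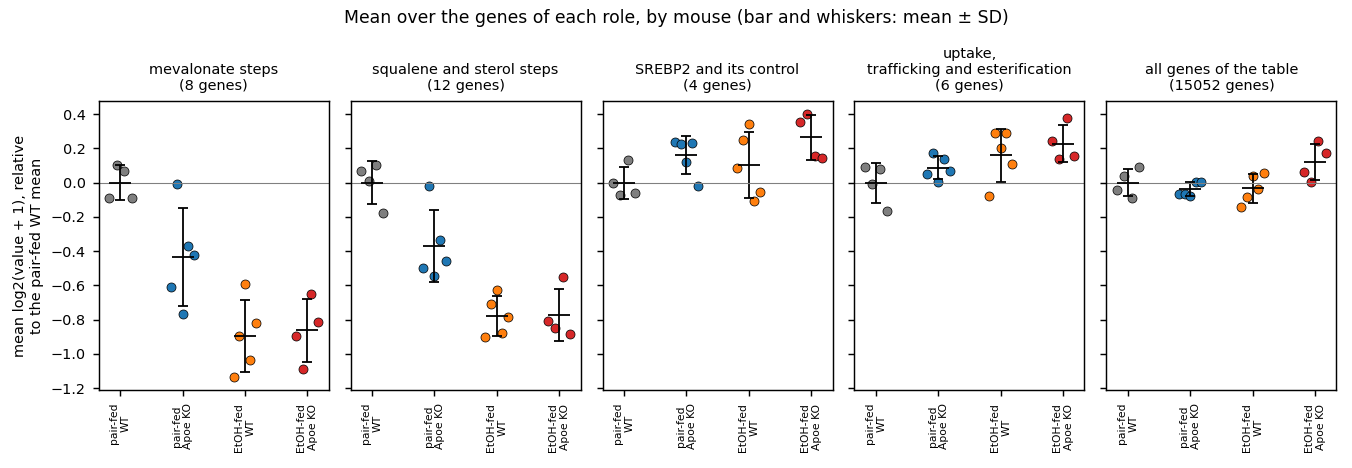
Mean log2(value + 1) relative to pair-fed WT over the members of each role and over all genes, with a point for each mouse. The mevalonate and the squalene and sterol means are between −1.14 and −0.55 in every EtOH-fed mouse, and those of pair-fed *Apoe* KO mice spread from −0.77 to 0.00.

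Averaged within each mouse relative to pair-fed WT, the 8 mevalonate genes were at −0.90 ± 0.21 (SD, n = 5) on the log2 scale in EtOH-fed WT mice and at −0.86 ± 0.18 (n = 4) in EtOH-fed KO mice. Pair-fed KO mice were between these and pair-fed WT, at −0.44 ± 0.29 (n = 5). The 12 squalene and sterol genes were at −0.78 ± 0.12, −0.77 ± 0.15 and −0.37 ± 0.21 in the same groups. The means of both EtOH-fed groups were within 1 SD of each other in each set. Over all genes the mean was −0.03 in WT mice and 0.12 in KO mice given ethanol.

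The 4 genes of SREBP2 and its control did not move as 1 group. *Srebf2* itself (chr15:82147181-82205379) was at 1867, 1850, 1972 and 1585 in pair-fed WT mice and at 1652, 1751, 1448, 1619 and 1451 in EtOH-fed WT mice. It was at 1964, 2302, 1605, 1885 and 1807 in pair-fed KO mice and at 1677, 1623, 1621 and 1496 in EtOH-fed KO mice. The groups overlapped in both genotypes. The log2 fold change was −0.20 ± 0.10 in WT mice (adjusted p = 0.237) and −0.24 ± 0.11 in KO mice (adjusted p = 0.111). The mRNA says nothing of how much SREBP2 protein was cleaved.

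*Scap*, the escort of SREBP2 (chr9:110333288-110384950), was at 3198, 2970, 3445 and 3170 in pair-fed WT mice and at 3075, 3486, 3579, 3203 and 3258 in EtOH-fed WT mice. In KO mice it was at 3564, 3590, 3587, 3556 and 3097 on the pair-fed diet and at 4546, 3557, 4151 and 3607 on ethanol. The groups overlapped in both genotypes. Its log2 fold change was 0.05 ± 0.09 in WT mice (adjusted p = 0.742) and 0.18 ± 0.10 in KO mice (adjusted p = 0.186).

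*Insig1*, itself an SREBP target that retains Scap in the endoplasmic reticulum (chr5:28071363-28078662), was at 6684, 7459, 7870 and 5702 in pair-fed WT mice and at 3235, 3552, 3745, 2232 and 3148 in EtOH-fed WT mice. It was at 5748, 7042, 6986, 7059 and 7000 in pair-fed KO mice and at 2537, 2141, 2374 and 2119 in EtOH-fed KO mice. Every EtOH-fed mouse was below every pair-fed mouse, and the pair-fed genotypes were level with each other. This was a log2 fold change of −1.13 ± 0.15 in WT mice (adjusted p = 0.000439) and −1.56 ± 0.09 in KO mice (adjusted p = 7.12e-07), the lowest adjusted p of any member.

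*Insig2*, which also retains Scap and is known in liver as a gene lowered by insulin (chr1:121304353-121332589), went the other way. Its values were 3123, 2495, 3393 and 3722 in pair-fed WT mice and 9647, 11587, 16692, 8006 and 7230 in EtOH-fed WT mice. In KO mice they were 6009, 4052, 4341, 5044 and 3053 on the pair-fed diet and 17351, 30864, 12175 and 16368 on ethanol. Every EtOH-fed mouse was above every pair-fed mouse. With ethanol its log2 fold change was 1.69 ± 0.21 in WT mice (adjusted p = 0.000279), a 3.22-fold higher level, and 2.04 ± 0.23 in KO mice (adjusted p = 8.40e-05), a 4.12-fold higher level. Per kb of exon, *Insig1* and *Insig2* stood at 2240 and 917 in pair-fed WT mice; in EtOH-fed KO mice *Insig2* stood at 5525.

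Among the genes of sterol trafficking and storage, *Stard4*, a carrier that moves cholesterol between membranes and an SREBP2 target, was at 3244, 2888, 3326 and 2246 in pair-fed WT mice and at 1407, 1711, 1259, 1549 and 1790 in EtOH-fed WT mice. It was at 2502, 3205, 1965, 2359 and 2916 in pair-fed KO mice and at 986, 1014, 1265 and 934 in EtOH-fed KO mice. The EtOH-fed mice of both genotypes lay below all pair-fed mice. The log2 fold change was −0.92 ± 0.14 in WT mice (adjusted p = 0.00116) and −1.29 ± 0.14 in KO mice (adjusted p = 5.93e-05).

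*Soat2*, which esterifies cholesterol in hepatocytes (chr15:102150526-102163469), was at 1717, 1744, 1286 and 1726 in pair-fed WT mice and at 2043, 3213, 3552, 4076 and 3267 in EtOH-fed WT mice. It was at 1577, 1886, 1893, 1766 and 1710 in pair-fed KO mice and at 2630, 3079, 2948 and 2638 in EtOH-fed KO mice. All EtOH-fed mice were above all pair-fed mice. This was a log2 fold change of 0.97 ± 0.17 in WT mice (adjusted p = 0.00332) and 0.68 ± 0.09 in KO mice (adjusted p = 0.000255).

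Of the other 4, *Mylip*, a ubiquitin ligase induced by the oxysterol receptor LXR, rose in both genotypes, with log2 fold changes of 0.54 in WT mice and 0.76 in KO mice. *Npc1*, which exports cholesterol from lysosomes, rose in KO mice (0.66, adjusted p = 0.00336) and had an estimate of 0.82 in WT mice that did not pass (adjusted p = 0.0689). With all 18 mice in 1 fit, the KO call of *Npc1* was lost (adjusted p = 0.0507). *Npc2*, its soluble partner, had −0.20 in WT mice and 0.09 in KO mice, and *Tmem97*, a sterol-responsive membrane protein, −0.25 and −0.04; neither passed. *Tmem97* shares 20.8% of its stretches with *Gm5809*.

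The genotypes were compared without ethanol in the 5 pair-fed KO and 4 pair-fed WT mice, which also serve the diet comparisons. The study lists the KO and WT mice as bought and does not call them littermates. Loss of *Apoe* and other differences between these lines therefore cannot be told apart, here or in EtOH-fed mice. *Acat2*, *Dhcr7*, *Hmgcs1* and *Tm7sf2* fell and *Npc1* rose, that is 4 and 1 of the 30 members against 0.864% and 0.87% of all genes tested. All 20 enzyme estimates were below 0, as were those of 7630 of the 15052 genes. At an unadjusted p under 0.05, 12 enzymes were lower. Of all genes, 1402 were lower at such a p, and 19.9% had such a p in either direction. *Acat2* fell by 0.65 ± 0.10 (SE) on the log2 scale (adjusted p = 0.00416) and *Hmgcs1* by 0.72 ± 0.16 (adjusted p = 0.0367). *Tm7sf2* fell by 0.50 ± 0.10 (adjusted p = 0.0233). *Dhcr7*, the reductase that yields cholesterol, fell by 0.57, just inside the threshold (adjusted p = 0.0495), and *Npc1* rose by 0.67 (adjusted p = 0.0494). *Pmvk* and *Nsdhl* had estimates of −0.67 and −0.66 that did not pass (adjusted p = 0.0685 and 0.0728). *Insig1* had an estimate of −0.03 with a 95% interval from −0.26 to 0.20. In *Acat2*, *Hmgcs1* and *Tm7sf2* every pair-fed KO mouse was below every pair-fed WT mouse, as in 3.02% of all genes. Beside these, the adrenal and steroid tissue markers (2 of 3 in the table, without *Cyp11a1*) summed to 2148 to 3700 in pair-fed KO mice and 4957 to 6402 in pair-fed WT mice, and the 5 lymphocyte markers to 99 to 172 and 145 to 393. Their part in the result was not tested.

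Pair-fed KO mouse 2 was the highest of its group in this comparison. Its mean over the members was 0.06 on the log2 scale relative to pair-fed WT, while the other 4 pair-fed KO mice were between −0.40 and −0.17. The check of single mice given further on did not single it out by this mean. The mouse was picked for its high values in these same members, so lower estimates without it follow partly from that choice. Without this mouse, 9 members fell and none rose, with no count over all genes to set beside them. Those 9 were *Acat2*, *Cyp51*, *Dhcr7*, *Hmgcs1*, *Lss*, *Msmo1*, *Nsdhl*, *Sqle* and *Tm7sf2*, all of them enzymes. The call also depended on other mice: leaving out pair-fed WT mouse 2 or 4 or pair-fed KO mouse 1 left 1 member lower, and leaving out pair-fed WT mouse 1 or pair-fed KO mouse 3 or 4 left 2. *Dhcr7* kept its call only without pair-fed KO mouse 2, and *Npc1* only without pair-fed WT mouse 3 or pair-fed KO mouse 5. *Hmgcs1* lost its call without pair-fed WT mouse 1, 2 or 4 or pair-fed KO mouse 1, 3 or 4. *Tm7sf2* lost its call without pair-fed WT mouse 2 or 4 or pair-fed KO mouse 1, with all 18 mice in 1 fit and with the replicate block. *Acat2* kept its call throughout, with 39.1% of its stretches shared with other genes.

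In EtOH-fed liver, the 4 *Apoe* KO mice were compared with the 5 WT mice. *Stard4* fell and no member rose, against 0.445% and 4.25% of all genes tested. Its log2 fold change was −0.55 ± 0.13 (adjusted p = 0.0314), and without EtOH-fed KO mouse 1 it was −0.53 and no longer passed, leaving no member called. The call was also lost without EtOH-fed WT mouse 1, 2, 4 or 5 or EtOH-fed KO mouse 2 or 5, with estimates from −0.58 to −0.50. Without EtOH-fed WT mouse 4, *Insig1* passed in its place (−0.58, adjusted p = 0.0124). At an unadjusted p under 0.05, 6 members were higher and 3 lower, against 2426 and 419 of the 15052 genes (18.9% in either direction). *Insig1* had −0.45 (adjusted p = 0.0857) and *Insig2* 0.83 (adjusted p = 0.0927), each in the direction of the diet effect. With size factors *Insig1* passed as well (−0.58), and all genes split into 380 higher and 126 lower calls in place of 639 and 67. Without EtOH-fed WT mouse 3, *Insig2* passed (1.01). *Hmgcs1* differed by −0.03 with a 95% interval from −0.33 to 0.26, and *Nsdhl* by 0.14 with an interval from −0.31 to 0.60. *Npc2* was the 1 member in which the groups did not overlap, higher in KO mice (log2 fold change 0.29, adjusted p = 0.160), where 7.12% of all genes separated in that direction. The median was −0.02 over the members and 0.11 over all genes, and with size factors −0.15 and −0.02.

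Whether ethanol acted differently in the 2 genotypes was tested over all 18 mice, as the effect in KO mice minus that in WT mice. *Mvd* passed and no other member did (3.33% of the members), against 2.6% of all genes with a higher and 0.239% with a lower term. The count is thus near the share over all genes. *Mvd*, the mevalonate diphosphate decarboxylase, was at 455, 828, 645 and 481 in pair-fed WT mice and at 199, 274, 352, 220 and 337 in EtOH-fed WT mice. It was at 315, 541, 240, 387 and 425 in pair-fed KO mice and at 370, 306, 495 and 581 in EtOH-fed KO mice. The WT groups were apart, with the EtOH-fed mice lower, and the KO groups overlapped. The log2 fold change was −1.11 ± 0.21 in WT mice (adjusted p = 0.00505) and 0.21 ± 0.23 in KO mice (adjusted p = 0.564), and the interaction term was 1.32 ± 0.34 (adjusted p = 0.0388). Without EtOH-fed KO mouse 1 the term was 1.39 and still passed. It was lost without pair-fed WT mouse 2, 3 or 4, pair-fed KO mouse 1 or 3, EtOH-fed WT mouse 1, 2 or 4 or EtOH-fed KO mouse 4 or 5, with terms of 1.15 to 1.42, and with size factors (1.18), where all genes split into 294 higher and 84 lower calls in place of 392 and 36.

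The terms of 18 of the 20 enzymes were above 0, as were those of 9344 of the 15052 genes. At an unadjusted p under 0.05, 7 enzymes had a higher term. Of all genes, 1919 had a higher term at such a p, and 16.3% had such a p in either direction. *Dhcr7* had 0.87 ± 0.24 (adjusted p = 0.0508), *Acat2* 0.41 (adjusted p = 0.0980) and *Hmgcs1* 0.69 (adjusted p = 0.107). Without pair-fed KO mouse 2 these 3 passed together with *Mvd*. That mouse was picked for its high values in these members, so the higher terms follow partly from the choice. The median term was 0.28 over the members and 0.11 over all genes, and with size factors 0.14 and −0.03. *Insig1* had −0.43 (adjusted p = 0.232) and *Insig2* 0.35 (adjusted p = 0.663), with an interval for *Insig2* from −0.37 to 1.07.

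The members were compared mouse by mouse with the mean of the other members, as a description over 18 mice that share groups and a common scaling. Pearson's r was 0.955 for *Nsdhl*, 0.920 for *Cyp51* and 0.911 for *Msmo1*, and after the group means were taken out it was 0.84, 0.83 and 0.79. These neighbouring sterol enzymes thus varied with the rest of the pathway inside the groups as well. *Insig2* had −0.727 and *Soat2* −0.710, which became −0.088 and 0.142 without the group means. *Ebp* was the enzyme least like the others inside the groups, at −0.348. *Insig1* and *Insig2* had an r of −0.879 with each other over the 18 mice. That value includes the opposite shifts of their group means, and it was not computed without them.

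Of 71 other genes of sterol metabolism listed by function, 68 were in the table. In WT mice 5 rose and 16 fell with ethanol (7.35% and 23.5%), against 6.19% and 6.52% of all genes tested. In *Apoe* KO mice 12 rose and 16 fell (17.6% and 23.5%), against 16.3% and 6.92%. The higher counts were thus near the share over all genes in both genotypes. In the list headed other SREBP2-responsive genes 9 of 11 fell in WT mice and 5 of 11 in KO mice, and none rose. This list also holds genes of fatty acid metabolism, such as *Fads1* and *Fabp5*, and which factor acted on its genes was not tested. *Acss2*, which makes acetyl-CoA from acetate, had a mean of 2047 in EtOH-fed WT and 6614 in pair-fed WT mice, a log2 fold change of −1.68 ± 0.13 (adjusted p = 1.06e-05). *Rdh11*, a retinol dehydrogenase, had −1.37 and *Fabp5*, a fatty acid carrier, −3.04. In pair-fed KO mice the same 3 genes were below pair-fed WT, by −1.25, −0.92 and −2.06. *Acss2* and *Rdh11* passed the interaction test, with terms of 1.11 (adjusted p = 0.00571) and 0.86 (adjusted p = 0.0218).

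Of the 6 sterol synthesis enzymes tested that are not members, 3 fell in each genotype. For this list and those below, 6.19% of all genes rose and 6.52% fell in WT mice. In KO mice 16.3% of all genes rose and 6.92% fell. *Erg28*, a scaffold of the sterol enzymes, fell by 1.03 on the log2 scale in WT mice and by 0.59 in KO mice. In the list of SREBP processing and sterol-regulated degradation, 2 of 12 rose in WT mice and 6 of 12 in KO mice. The WT count is too small for a result about the list, and SREBP processing itself was not tested. *Syvn1*, a ubiquitin ligase of the endoplasmic reticulum, had 1.13 in KO mice, and *Hsp90b1*, a chaperone of that compartment, 0.70. In the list of LXR and sterol efflux genes, 2 of 10 fell in WT mice, and 5 of 10 fell and 1 rose in KO mice. *Abcg5*, which exports sterols into bile with its partner *Abcg8*, had −1.15 in WT mice and −1.21 in KO mice, and *Abcg8* had −1.17 in KO mice. *Srebf1*, which encodes the lipogenic relative of SREBP2, had −1.73 in KO mice, and its interaction term was −1.08 (adjusted p = 0.0469). In the 13 genes of sterol trafficking and esterification 1 rose in WT mice, and 3 rose and 1 fell in KO mice. *Soat1*, the esterifying enzyme of macrophages and other cells, was higher in EtOH-fed KO than EtOH-fed WT mice, by 1.04 ± 0.18 (adjusted p = 0.00571). The summed macrophage markers given above were also higher, and a link between them and *Soat1* was not tested. The 11 genes of the isoprenoid branch had 1 higher and 1 lower call in WT mice and 1 higher in KO mice. In the trafficking and isoprenoid lists the counts were within about 1 gene of what the shares over all genes give, so they are no result about the lists. Of 5 oxysterol and bile acid genes tested, 1 rose and 1 fell in WT mice, and 1 rose and 2 fell in KO mice. With so few genes these counts are no result about the list.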

How the data were processed

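Liver polyA RNA of 18 mice was sequenced. Per the labels, the authors used FastQC, Trimmomatic, HISAT2, SAMtools, featureCounts and DESeq2 with GRCm38; versions and whether counting used strand are not given in the sources used here. The deposited values are of unit signal: rounded read counts that the authors brought to almost the same total in each mouse, as the values show. Whole reads could not be recovered in 12 of 18 mice, so no count test was run. The authors' fold changes and p-values in the same table were not used. Of 15247 rows, 195 identical repeats of a gene were dropped; the lowest gene mean was 12.1, and no further filter was applied.

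Values were tested as log2(value + 1), where a pseudocount of 1 understates changes of low genes, with limma 3.58.1 (R 4.3.3; empirical Bayes with an intensity trend, two-sided, Benjamini-Hochberg over 15052 genes). Each fit held only the mice of the groups compared, or all 18 for the interaction. Each mouse was 1 replicate, grouped by its label. Figures and tables used Python 3.11.15, numpy 2.4.6, pandas 2.3.3 and matplotlib 3.10.9. The fits were tested on simulated data. Gene positions are from GENCODE vM21 (GRCm38). Sequences of 50 bases shared with other annotated transcripts were counted, and 5 members had 20% or more.

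The members and gene lists were chosen with earlier results of these data known. Values per mouse are given for the 12 members with the lowest adjusted p in any comparison and for *Srebf2* and *Scap*; *Mvd* and other members named beyond these were chosen after their values were seen. Of the other lists, at most the 5 genes with the lowest adjusted p per comparison are named, and items not reported here were left out of those. Alternatives tried were size factors, a pseudocount of 0.1, a minimum value of 10, quality weights, all 18 mice in each fit, a replicate block and leaving out each mouse.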

Additional observations from a re-analysis of the deposited data

Results flagged for a closer look

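Within groups of 4 or 5 mice, the highest or lowest mouse was examined by how far it stood from its neighbour, divided by the spread from lowest to highest (the gap share). This singled out a mouse in 11 of 124 groups of values, where chance alone gives about 6.2. *Sqle* in EtOH-fed *Apoe* KO mouse 4 had a gap share of 0.962 (1339, median of the others 894), and *Idi1* in the same mouse 0.849 (966 against 401). *Insig1* in pair-fed KO mouse 1 had 0.949 (5748 against 7021), *Lss* in pair-fed KO mouse 2 had 0.730 (1327 against 881.9), *Scap* in pair-fed KO mouse 5 had 0.936 (3097 against 3575.5), and *Mylip* in pair-fed KO mouse 3 had 0.735 (271 against 419.8). *Soat2* in pair-fed WT mouse 3 had 0.949 (1286 against 1726) and *Lbr* in pair-fed WT mouse 1 had 0.832 (484 against 341). *Mylip* in EtOH-fed WT mouse 1 had 0.787 (486 against 534.5) and *Npc2* in EtOH-fed WT mouse 4 had 0.757 (2696 against 3145.9). *Pmvk* in EtOH-fed KO mouse 1, whose female label the data go against, had 0.864 (819 against 640).

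*Mvd* passed the interaction test, with a term of 1.322 on the log2 scale by limma's test over all 18 mice. The call was lost without any 1 of 10 of the mice and with size factors. As 1 call among the 30 members, it is near the 2.6% of all genes with a higher term. What lies behind these values was not tested.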

How the results depend on the processing

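In both diet comparisons the counts of members higher and lower stayed within 1.5 times of those reported under every alternative in which no mouse was left out, with 15 to 17 lower in WT and 10 to 14 in *Apoe* KO mice, and no member changed direction while called in any comparison. In pair-fed KO against pair-fed WT mice, 0 members rose with size factors, with a pseudocount of 0.1 and with all 18 mice in 1 fit, which also left 2 lower. In EtOH-fed KO against WT mice, 2 members fell with size factors and 2 fell and 1 rose with all 18 mice. In the interaction, 0 members were higher with size factors, where the median was 0.14, and 2 with genes under 10 in any mouse left out or with quality weights. The causes were not tested.

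Leaving out each mouse in turn gave 3 to 4 higher and 14 to 17 lower in WT mice and 4 higher and 7 to 12 lower in KO mice. In the genotype comparisons it gave 0 to 2 higher and 1 to 9 lower in pair-fed mice and 0 to 1 higher and 0 to 1 lower in EtOH-fed mice, and in the interaction 0 to 4 higher. A group left with 3 or 4 mice shared its spread with the other group of the fit. No shares over all genes are set beside these counts, so a loss of calls over the whole table cannot be told apart.

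The correlation of same-numbered mice was not over 0.1 in every pair of any 2 groups (−0.28 to 0.31 over all pairs), so the numbers are not taken as pairs; in EtOH-fed mice 3 of the 4 pairs were at 0.19 to 0.31. A replicate block, over the numbers each pair of groups shares, gave 15 lower and 4 higher in WT mice, 12 lower and 4 higher in KO mice, 2 lower and 2 higher in pair-fed mice, 2 higher in EtOH-fed mice and 0 higher in the interaction. The same mice with no block, an alternative added after the data were seen, gave 2 higher in pair-fed mice, 1 higher in EtOH-fed mice and 0 higher in the interaction; over all genes the block moved the calls in EtOH-fed mice from 520 higher and 58 lower to 961 and 122.

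Depth limits the lowest members: 1 read was worth as much as 5.76 scaled units in the mice where this was read from the values, and *Fdps* went down to 47.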

Other observations

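Outside the genes listed for the pathway, the genes most like the mean of the 30 members over the 18 mice, as a description with no test, included *Mmab* (Pearson's r of 0.914), an enzyme of vitamin B12 metabolism that shares its promoter region with *Mvk*. *Fmn1*, which nucleates actin, had 0.872, and *Idh1*, the cytosolic isocitrate dehydrogenase that makes NADPH, had 0.858. *Mmab* had log2 fold changes with ethanol of −0.86 in WT mice (adjusted p = 0.00497, limma) and −0.63 in *Apoe* KO mice (adjusted p = 0.0116), and *Idh1* −0.67 (adjusted p = 0.00384) and −0.59 (adjusted p = 0.000278). *Fmn1* had −1.58 (adjusted p = 0.00109) and −0.82 (adjusted p = 0.0225). At the opposite end were *Eps8l2* (−0.839), *Stra6l* (−0.831) and *Acnat2* (−0.820), a peroxisomal acyltransferase. *Stra6l* had 1.35 in WT mice and 1.13 in KO mice, and *Acnat2* 0.80 in KO mice. These genes were chosen for their likeness over the same mice, so their fold changes are not independent of it.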
